A study of Homo sapiens with 6 samples.

Results

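The genes described here encode the building blocks of microtubules and stathmin, the small protein that holds them in reserve. They were followed in HT29 cells, an established human colorectal adenocarcinoma line of wild-type genotype by its labels, that had been cultured for 48 h in control medium (untreated), in medium lacking histidine (Hdepl) or in medium lacking tryptophan (Wdepl). The transcriptomic comparison asked how HT29 cells respond to the lack of histidine, with the lack of tryptophan as a second amino acid shortage. Each condition was sequenced as 2 libraries, 6 in all, and the labels do not say whether the libraries of a condition came from separate cultures, so the error given here is the spread between these libraries and may be technical. The histidine-free medium had an RPMI base and the tryptophan-free medium a DMEM F-12 base, while which base the untreated cells of the sequencing had was not given in the sources used here. Depletion and base medium therefore cannot be told apart.

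The 10 genes, of the 60676 listed, were taken by symbol: STMN1, the alpha-tubulins TUBA1A, TUBA1B and TUBA1C, and the beta-tubulins TUBB, TUBB2A, TUBB2B, TUBB3, TUBB4B and TUBB6. This set was selected on results of the same 6 libraries, so the values below are a description of the genes and no p-value is given for them. All 10 passed the filter on low counts in all 3 comparisons. TUBB3 was nearest to that filter, which required a mean of at least 10 normalized counts over the libraries compared.

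Microtubules are hollow polymers of heterodimers, each of an alpha- and a beta-tubulin, and they form the mitotic spindle, the tracks of intracellular transport and the core of cilia. Stathmin binds free heterodimers, lowers the amount available for polymerization and promotes the shrinkage of microtubules, and its mRNA is typical of dividing cells. Cells tune tubulin mRNA to the amount of free dimer. When free tubulin is plentiful, the factor TTC5 recognizes the first residues of a tubulin chain as it leaves the ribosome, and SCAPER and the CCR4-NOT deadenylase then direct the mRNA to decay. The isotypes are encoded by separate genes: TUBB3 is best known from neurons, TUBB2A and TUBB2B are abundant in brain, TUBA1A is the main alpha-tubulin of developing neurons, and TUBA1B, TUBA1C, TUBB and TUBB4B are broadly expressed.

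The coding starts are shown because they encode the residues that this control reads, and because they separate tubulins from stathmin. Each line gives the first 30 coding bases of the canonical transcript on the coding strand, from the GRCh38 genome annotated by GENCODE 44, and capitals mark the first 4 codons.
STMN1: ATGGCTTCTTCTgatatccaggtgaaagaa
TUBA1A: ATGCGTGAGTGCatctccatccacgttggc
TUBA1B: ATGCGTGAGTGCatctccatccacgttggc
TUBA1C: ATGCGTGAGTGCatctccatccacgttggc
TUBB: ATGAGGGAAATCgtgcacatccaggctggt
TUBB2A: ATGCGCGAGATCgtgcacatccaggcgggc
TUBB2B: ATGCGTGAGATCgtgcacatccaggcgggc
TUBB3: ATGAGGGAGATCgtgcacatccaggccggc
TUBB4B: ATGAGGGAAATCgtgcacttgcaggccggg
TUBB6: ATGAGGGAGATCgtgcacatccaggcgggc
The 3 alpha-tubulins were identical over these 30 bases. Among the beta-tubulins, TUBB shared its first 4 codons with TUBB4B, and TUBB3 shared its own with TUBB6, while TUBB2A and TUBB2B each had a codon combination found in no other member. In codons 2 to 4 the stathmin start shares none with the tubulins.

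The depleted amino acids are themselves part of these coding sequences. The 9 tubulins each carried 4 tryptophan codons, in coding sequences of 444 to 451 codons. TUBA1A, TUBA1B and TUBA1C each held 13 histidine codons, TUBB3 held 11, and each of the other beta-tubulins held 10. STMN1, with 149 codons, held 4 histidine codons and 0 tryptophan codons. STMN1 was the member without any tryptophan codon, and codon content was not tested against the changes below.

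Libraries held between 46390819 and 64388876 reads, recovered from the deposited normalized counts. Their mean lies above the read pairs per sample that the study's methods state, and the reason was not found, so absolute read numbers are less certain than ratios between libraries. The 10 genes together took 0.194% of the reads in both untreated libraries, 0.099% and 0.102% in Hdepl, and 0.0547% and 0.0543% in Wdepl. Because these are bulk samples, fewer cells with a transcript and less transcript per cell cannot be told apart. Markers matched the labelled cell type: all 10 colon epithelial markers had reads in untreated cells, with summed normalized counts of 394534 to 420218, against 565775 to 596753 in Hdepl and 571984 to 574748 in Wdepl. Of the 8 markers that averaged 10 or more normalized counts in both groups, 5 were higher and 3 lower in Hdepl (median log2 fold change 0.33). The test was limma with an adjusted threshold of 0.05, by which 39.1% of all genes tested passed as higher and 38.2% as lower. In Wdepl 5 of 9 such markers were higher and 2 lower (median 0.36), beside 36.1% and 34.8% of all genes tested. Those higher in Hdepl included KRT20 (1.74) and KRT19 (1.55), and those lower included CDX2 (-1.37) and KRT18 (-0.52). CDX1, at 0 in Hdepl, and GPA33 were also lower there but reached that mean in untreated cells only. No fold change is given for them, and CDX1 is left out of the Wdepl count too. Of 7 fibroblast markers, 4 had reads in untreated cells, summing to between 75.6 and 76.5 normalized counts, against 35.2 to 42.7 in Hdepl and 59.8 to 71.4 in Wdepl, and COL1A2 and PDGFRA were at 0 throughout. Of the 9 leukocyte and mast cell markers, LYZ, which secretory epithelium also expresses, gave nearly the whole sum: the list lay between 64881 and 69522 in untreated cells, 12474 and 14508 in Hdepl, and 38415 and 38427 in Wdepl, with TPSAB1, CPA3 and KIT at 0 in each group. The 10 neuronal markers, relevant because several isotypes are best known from neurons, summed to between 72.1 and 83.5 in untreated cells, 399 and 404 in Hdepl, and 54 and 74.7 in Wdepl. SNAP25, DCX and NEFL were at 0 throughout, and SYP alone reached 384 to 389 in Hdepl.

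A group of abundant genes carried most of the signal. On the RPKM scale (reads divided by exon length in kilobases and by library size), which allows genes of different length to be compared, TUBB4B stood highest in untreated cells at 241 ± 1.8 (SD, n = 2), ahead of TUBB at 171 ± 0.876, TUBA1B at 67.4 ± 3.11, TUBA1C at 57.8 ± 0.351 and STMN1 at 37.3 ± 1.23. TUBA1A followed at 4.17 ± 0.146 and TUBB2A at 2.14 ± 0.154. TUBB2B at 0.236 ± 0.0408 and TUBB6 at 0.225 ± 0.0163 overlapped between libraries, and TUBB3 was lowest at 0.0273 ± 0.00243. The library totals used here and the size factors used for normalized counts and fold changes differ: over all genes tested the median log2 difference from untreated was -0.18 in Hdepl and -0.06 in Wdepl with library totals, against 0.00 and 0.02 with size factors, so fold changes below are relative to the size factors. With this exon length, the order of the other untreated neighbours did not overlap between libraries. The length is the union of all annotated exons, 6247 bases for STMN1 against 1443 in its canonical transcript. For TUBA1B the same lengths were 3574 and 1627, and for TUBB4B 2037 and 1563. The placing of STMN1 among the tubulins therefore depends on the length used, and RPKM was not computed with another. After both depletions TUBB4B stayed first, at 179 ± 3.71 in Hdepl and 107 ± 0.392 in Wdepl. On this scale TUBA1C then stood above TUBB and TUBA1B. Its margin over TUBB was small, at 51.7 against 50.1 in Hdepl and 30.4 against 29.8 in Wdepl, and was not checked with another length. In Wdepl, STMN1 had come down to 2.63 ± 0.188, which with this length overlapped TUBB2A at 2.64 ± 0.0452. Before division by length, STMN1 averaged 894 normalized counts there and TUBB2A 418, with all libraries scaled together.

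**Figure D1:**
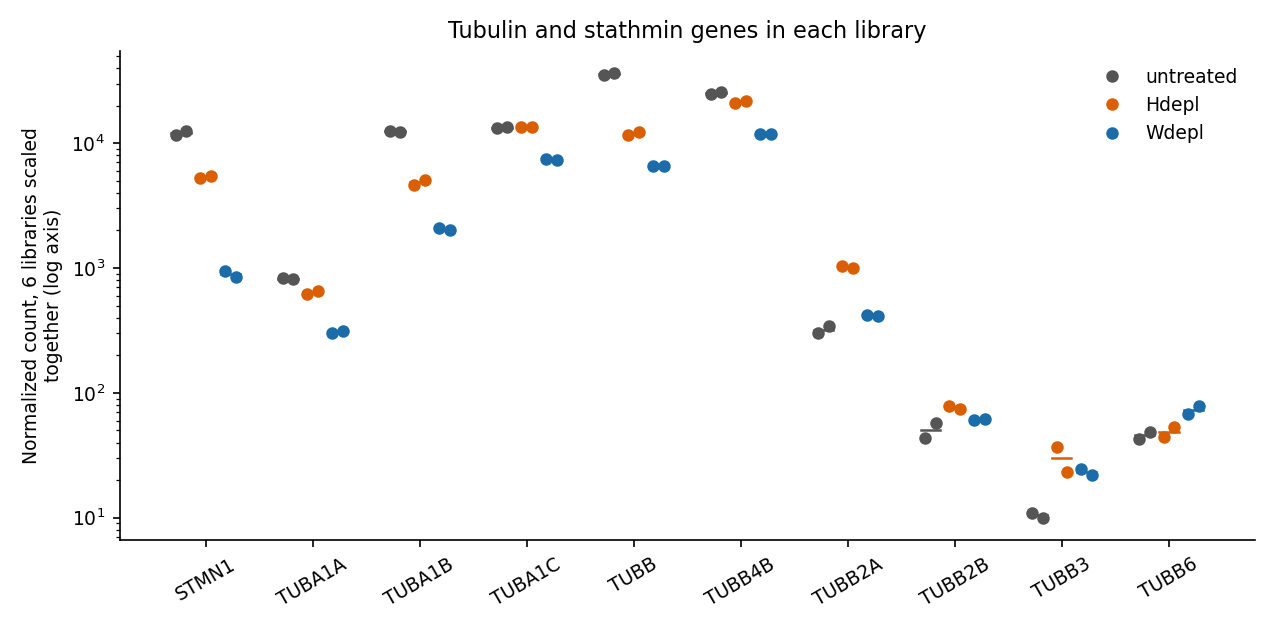
Normalized counts of the 10 genes in each of the 6 libraries, scaled together, on a log axis; points are libraries, short lines are group means, and colours are the conditions. STMN1, TUBA1B and TUBB step down from untreated to Hdepl to Wdepl, TUBA1C in Hdepl overlaps its untreated level on this scale, and TUBB2A is highest in Hdepl.

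After histidine depletion, STMN1, TUBA1B and TUBB fell to 0.448, 0.394 and 0.335 of their untreated levels while TUBB2A rose 3.19-fold, TUBA1C stayed near its untreated level and TUBB4B fell slightly. By limma with a Benjamini-Hochberg adjusted threshold of 0.05, 3 of the 10 were higher and 5 lower. Over all genes, 77.3% of the 18288 genes tested passed, 39.1% as higher and 38.2% as lower, and since the genes were chosen with these contrasts known, nothing is read from the member counts. The median log2 fold change was -0.11 over the members and 0.01 over all genes tested.

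After tryptophan depletion the falls were steeper. STMN1 fell 13.5-fold, TUBA1B 6.11-fold and TUBB 5.45-fold, TUBA1A, TUBB4B and TUBA1C fell as well, and TUBB2A, TUBB3 and TUBB6 were the members that passed the threshold as higher. The calls of TUBB3 and TUBB6 were lost in DESeq2, which left 1 member higher, and each was lost with a single library left out. In limma 3 members were higher and 6 lower, in a table in which 70.8% of 17960 genes passed, 36.1% as higher and 34.8% as lower. The median log2 fold change was -0.98 over the members and 0.013 over all genes tested. Both contrasts share the untreated libraries, so the values are set side by side without a test of their likeness.

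**Figure D2:**
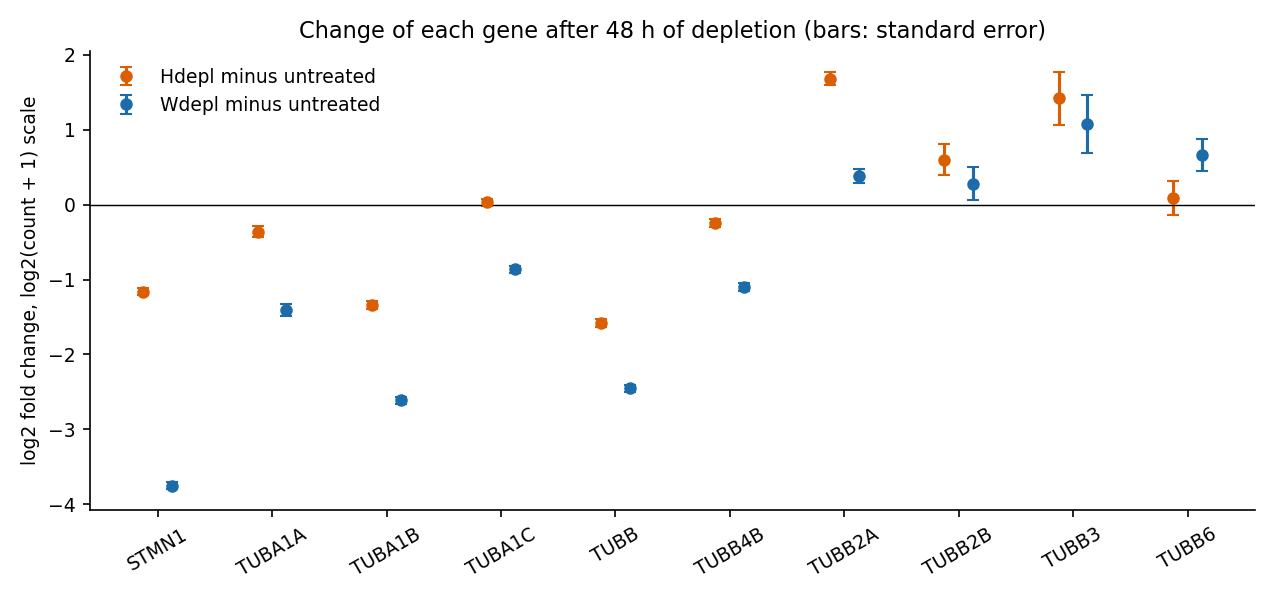
log2 fold change of each gene in Hdepl and in Wdepl against the same untreated libraries, on the log2(normalized count + 1) scale; points are the fitted values of 2 libraries per group and bars are standard errors. STMN1 lies at -3.75 in Wdepl and -1.16 in Hdepl, and TUBB2A lies at 1.68 in Hdepl and 0.38 in Wdepl.

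STMN1 (ENSG00000117632, chr1:25884181-25906991, minus strand), the gene of stathmin, had the largest log2 change of the members in Wdepl, while in Hdepl TUBB2A, TUBB, TUBB3 and TUBA1B changed by more. It had 11545 and 12485 normalized counts in the untreated libraries, 5222 and 5472 in Hdepl, and 938 and 851 in Wdepl, with all 6 libraries scaled together. The 3 groups did not overlap, and every Wdepl library lay below every Hdepl library. Within the deposited tables, each scaled on its own, its log2 fold change was -1.16 ± 0.0523 (SE) in Hdepl and -3.75 ± 0.05 in Wdepl. Between the depletions, the Hdepl level was 5.98-fold the Wdepl level, a log2 difference of 2.58 ± 0.0494.

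The 3 genes whose pattern over the 6 libraries came closest to that of STMN1, by Euclidean distance of centred log2 values among 12479 other genes with a mean of at least 100, were TK1, MCM10 and RRM2. TK1, which encodes the cytosolic thymidine kinase, lay at a distance of 0.176, with 9398 and 10186 normalized counts in untreated cells, 4316 and 4821 in Hdepl, and 761 and 787 in Wdepl. MCM10, a replication initiation factor, lay at 0.274, and RRM2, a subunit of ribonucleotide reductase, at 0.347. The nearest member, TUBA1B, lay at 1.45. The distances describe 6 libraries in 3 media, and no p-value is attached to them.

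TUBA1B (ENSG00000123416, chr12:49127782-49131397, minus strand), the alpha-tubulin with the highest untreated RPKM, had 12620 and 12200 normalized counts there, 4659 and 5057 in Hdepl, and 2078 and 2005 in Wdepl. The groups stepped down without overlap. Its log2 fold change was -1.34 ± 0.0516 in Hdepl and -2.61 ± 0.0472 in Wdepl.

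TUBA1C (ENSG00000167553, chr12:49188736-49274600, plus strand), a nearly identical alpha-tubulin, took another course. It had 13109 and 13413 normalized counts in untreated cells, 13391 and 13477 in Hdepl, and 7397 and 7334 in Wdepl. After histidine depletion the log2 fold change was 0.03 with a 95% interval of -0.07 to 0.13, and it became -0.24 and passed the threshold under quantile normalization. On the RPKM scale it was lower in Hdepl, at 51.7 ± 0.0207 against 57.8 ± 0.351, without overlap. After tryptophan depletion it fell by 0.86 ± 0.0465 on the log2 scale. TUBA1A (ENSG00000167552, chr12:49184686-49189080, minus strand), the isotype of developing neurons, was lower throughout, at 827 and 813 normalized counts in untreated cells, 623 and 649 in Hdepl, and 304 and 315 in Wdepl. Its groups did not overlap, and the log2 fold changes were -0.36 ± 0.0726 and -1.41 ± 0.082.

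TUBB (ENSG00000196230, chr6:30717435-30725538, plus strand), the broadly expressed class I beta-tubulin, had the most reads of any member in untreated cells. It had 35071 and 36455 normalized counts there, 11630 and 12175 in Hdepl, and 6586 and 6593 in Wdepl. The groups did not overlap, and the log2 fold changes were -1.58 ± 0.0526 in Hdepl and -2.45 ± 0.0478 in Wdepl. TUBB4B (ENSG00000188229, chr9:137241287-137243707, plus strand), the other abundant beta-tubulin, had 24738 and 25799 normalized counts in untreated cells, 20873 and 21646 in Hdepl, and 11824 and 11927 in Wdepl. It also stepped down without overlap, but by less: -0.24 ± 0.053 in Hdepl and -1.10 ± 0.0483 in Wdepl. The Hdepl difference of TUBB4B no longer passed the threshold when Hdepl replicate 1 was left out, at -0.22.

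TUBB2A (ENSG00000137267, chr6:3153497-3157544, minus strand) moved the other way. It had 299 and 342 normalized counts in untreated cells, 1035 and 1001 in Hdepl, and 423 and 414 in Wdepl. Both depletions lay above untreated cells, and Hdepl lay above Wdepl by a log2 difference of 1.28 ± 0.0596. The log2 fold change was 1.68 ± 0.0839 in Hdepl and 0.38 ± 0.0942 in Wdepl.

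The remaining beta-tubulins were sparse. TUBB2B (ENSG00000137285, chr6:3223324-3231730, minus strand) had 43.7 and 57.7 normalized counts in untreated cells, 78.6 and 74.3 in Hdepl, and 60.8 and 62.3 in Wdepl. Both depletions lay above untreated cells, by log2 fold changes of 0.60 ± 0.208 in Hdepl and 0.28 ± 0.221 in Wdepl, of which the latter did not pass (95% interval -0.16 to 0.72). TUBB3 (ENSG00000258947, chr16:89921392-89938761, plus strand) had 10.9 and 9.95 in untreated cells, 37 and 23.4 in Hdepl, and 24.5 and 22 in Wdepl. The untreated libraries were the lowest and the depletions overlapped, with log2 fold changes of 1.42 ± 0.355 and 1.08 ± 0.386 against untreated cells. TUBB6 (ENSG00000176014, chr18:12307669-12344320, plus strand), a divergent beta-tubulin, had 42.6 and 48.7 in untreated cells, 44.3 and 52.9 in Hdepl, and 67.2 and 78.7 in Wdepl. Untreated and Hdepl libraries overlapped, with a log2 fold change of 0.09 and a 95% interval of -0.38 to 0.57, while the Wdepl libraries were highest, by 0.66 ± 0.217. The direction of TUBB6 in Hdepl turned when Hdepl replicate 2 was left out (-0.029) or untreated replicate 1 (-0.0036). The TUBB2B call in Hdepl, the TUBB3 call in Wdepl and the TUBB6 call in Wdepl were each lost in DESeq2. They were also lost when single libraries were left out: untreated or Hdepl replicate 1 for TUBB2B (0.41 and 0.56), Wdepl replicate 1 for TUBB3 (1.01) and Wdepl replicate 2 for TUBB6 (0.54).

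Set directly against each other, the depletions differed in the same direction for the abundant genes and for TUBA1A and TUBB2A. Hdepl exceeded Wdepl by 5.98-fold for STMN1, 2.38-fold for TUBA1B, 1.82-fold for TUBA1C, 1.81-fold for TUBB and 1.79-fold for TUBB4B. For the less abundant TUBB2A and TUBA1A it did so by 2.43-fold and 2.05-fold. STMN1 thus differed between the depletions by more than any tubulin, and the 4 abundant tubulins ranged from 1.79-fold to 2.38-fold. TUBB6 was the member lower in Hdepl, at -0.58 ± 0.195 on the log2 scale, a call that was lost in DESeq2 (-0.61), without Hdepl replicate 1 (-0.45) and without Wdepl replicate 2 (-0.47). TUBB2B (0.31, 95% interval -0.07 to 0.68) and TUBB3 (0.33, -0.31 to 0.98) did not pass. In all, 7 members were higher in Hdepl and 1 was lower, where 78.3% of 18276 genes passed, 39.9% as higher and 38.4% as lower. The median was 0.86 over the members and 0.018 over all genes tested. This contrast shares its libraries with those above and was fitted on recovered reads scaled together, since the deposited tables had been scaled separately.

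The summed level of the 9 member tubulins fell in both depletions, and their proportions changed. These sums leave out the other tubulins listed, of which TUBA4A rose. The summed RPKM of the 3 alpha genes was 129 ± 3.61 in untreated cells, 77.8 ± 1.28 in Hdepl and 42.4 ± 0.511 in Wdepl, or 60.1% and 32.8% of the untreated mean. The 6 beta genes summed to 414 ± 2.88, 235 ± 4.91 and 140 ± 0.333, or 56.9% and 33.9% of it. STMN1 went to 39.3% in Hdepl and 7.05% in Wdepl. With size factors in place of library totals, an alternative added after the data were seen, these were 68.2% and 34.6% for the alpha genes, 64.5% and 35.8% for the beta genes, and 44.5% and 7.44% for STMN1. With the 7 other alpha-tubulins listed, also added after the data were seen, the alpha sum was 153 ± 4.47, 104 ± 1.11 and 72.5 ± 0.401, or 68% and 47.3% of untreated. With the 3 other beta-tubulins listed the beta sum stayed at 56.9% and 33.9%. TUBA4A alone had an RPKM of 22.8 ± 0.806 in untreated cells, 25.7 ± 0.371 in Hdepl and 28.9 ± 0.281 in Wdepl, above TUBA1B in both depletions.

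Within the sum of the 3 alpha members, TUBA1B gave 52.8% and 51.4% of the reads per kilobase in untreated cells, 29.1% and 30.7% in Hdepl, and 25% and 24.5% in Wdepl. TUBA1C made up most of the difference, at 44.7% ± 0.974, 66.4% ± 1.12 and 71.7% ± 0.261. Without division by length the untreated order was reversed, with TUBA1C at 50.1% and TUBA1B at 46.8%. TUBA1A stayed between 3.2% and 3.68% in every library. Over all 10 alpha-tubulins listed, TUBA1B gave 44%, 22.3% and 14.5%, TUBA1C 37.7%, 49.6% and 42%, and TUBA4A 14.9%, 24.7% and 40% on average in untreated, Hdepl and Wdepl. Within the sum of the 6 beta members, TUBB gave 41.2% and 41.1% in untreated cells, 21.2% and 21.4% in Hdepl, and 21.3% and 21.2% in Wdepl. TUBB4B rose from 58.2% ± 0.0291 of this sum to 75.9% ± 0.00506 and 76.4% ± 0.0984, and TUBB2A from 0.517% ± 0.0336 to 2.55% ± 0.126 and 1.89% ± 0.0367. TUBB2B, TUBB3 and TUBB6 each stayed under 0.27% of this sum. Which beta-tubulin was the larger in untreated cells depended on the length used, since TUBB gave 58.2% of the reads when these were not divided by length. The drop of TUBB and TUBA1B shares from untreated to both depletions was present under every length used. The SD in these shares is over 2 libraries, and no test was run on them.

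**Figure D3:**
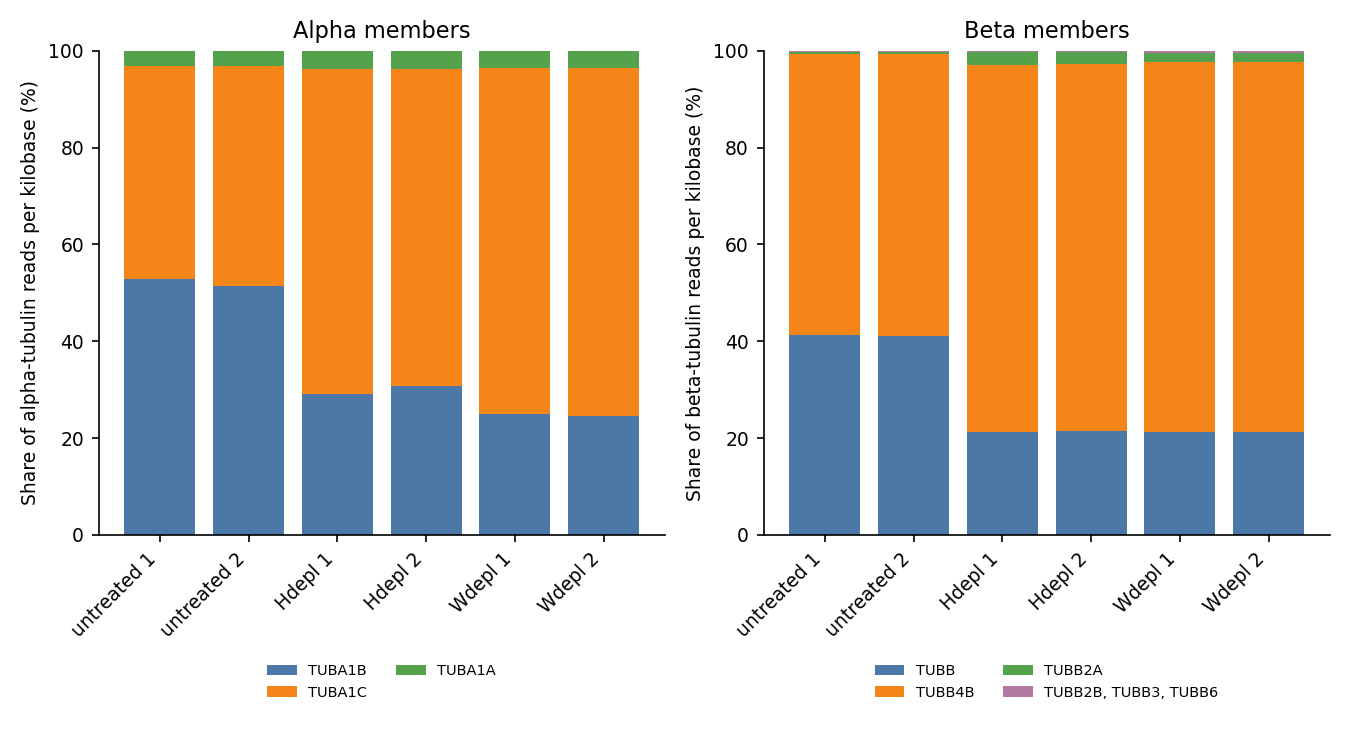
Share of each gene in the summed reads per kilobase of the alpha (left) and beta (right) members, in percent, with a bar per library. The TUBA1B segment goes from 52.1% on average in untreated cells to 29.9% in Hdepl and 24.8% in Wdepl, and the TUBB segment from 41.2% to 21.3% and 21.2%.

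Near-identical sequence limits some of these values. TUBA1A, TUBA1B and TUBA1C shared 96% to 97.3% of their aligned coding bases, and TUBB2A and TUBB2B 98.1%. Counted in windows of 150 bases, the read length, 48.7% of the windows of the TUBB2A transcript and 41.6% of those of TUBB2B occurred unchanged in a gene elsewhere in the genome. The share was 19.1% for TUBA1B, 6.96% for TUBA1A, 6.62% for TUBA1C, 2.66% for TUBB, 2.31% for TUBB3, and 0 for STMN1, TUBB4B and TUBB6. How reads that fit several places were treated was not given in the sources used here, so the TUBB2A and TUBB2B values are the least certain in this respect. TUBB3 is uncertain for another reason: 92.3% of its transcript windows also lie in a readthrough gene annotated over it, to which 0 reads were assigned in any library. How reads overlapping both genes were counted was not given either, so the TUBB3 level may be too low, which was not tested. On the opposite strand, TUBA1B-AS1 covers 44% of the TUBA1B exon bases and had between 9 and 17 reads. AFG3L2 covers 21.2% of the TUBB6 exon bases from the other strand, and MDC1 and a further gene cover 13.5% of those of TUBB. TUBA1A and TUBA1C overlap each other on opposite strands. The use of strand in counting was not given, so reads of such pairs may be mixed. The 52 tubulin and STMN1 pseudogenes listed summed to 1955 and 2224 reads in untreated cells, 887 and 750 in Hdepl, and 443 and 450 in Wdepl, which is 1.28% to 2.18% of the members' own reads.

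Pairs of members were compared for the likeness of their pattern, again by the distance of centred log2 values over 6 libraries. TUBA1C and TUBB4B were each other's nearest member at 0.298, and TUBA1B and TUBB at 0.409. TUBA1A lay nearest to TUBB4B, at 0.324. STMN1 stood apart, with no member nearer than 1.45. The sparser beta-tubulins also had no near member: the nearest lay at 1.10 for TUBB2A, 1.09 for TUBB3, and 0.941 for TUBB2B and TUBB6. These are descriptions of 6 libraries and the groupings cross the alpha and beta classes.

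The promoters of 4 members are shown because they moved furthest in the abundant range or against the others. Each line is the 120 bases before the RefSeq start on the gene's own strand, in GRCh38.p14, with CCAAT and GGGCGG, or their reverse complements, in capitals. CCAAT is the letter core bound by NF-Y and GGGCGG that bound by Sp1-type factors. They lie at chr1:25906420-25906539 for STMN1, chr12:49131396-49131515 for TUBA1B, chr6:30720232-30720351 for TUBB and chr6:3157545-3157664 for TUBB2A.
STMN1: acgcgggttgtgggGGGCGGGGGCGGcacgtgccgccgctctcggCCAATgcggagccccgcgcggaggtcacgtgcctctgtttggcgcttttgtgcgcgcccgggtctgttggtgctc
TUBA1B: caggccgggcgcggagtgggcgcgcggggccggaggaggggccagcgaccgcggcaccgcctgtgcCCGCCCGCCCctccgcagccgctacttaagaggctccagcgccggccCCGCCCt
TUBB: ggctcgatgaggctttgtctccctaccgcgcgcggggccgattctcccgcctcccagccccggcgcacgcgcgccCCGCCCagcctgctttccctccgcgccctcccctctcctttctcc
TUBB2A: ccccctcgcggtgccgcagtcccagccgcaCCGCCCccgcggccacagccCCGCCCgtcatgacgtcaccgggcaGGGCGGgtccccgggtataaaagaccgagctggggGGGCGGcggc
In the full window of 300 bases around the start, searched on both strands, CCAAT occurred in 6 of the 10 members and in 35.7% of 27305 promoters, and GGGCGG in 5 of the 10 and in 44.6%. The letters TTTGGCGC, an E2F-type motif, occurred in STMN1 alone among the members and in 0.659% of promoters. TATAAA and TGACGTCA, the latter the letters bound by CREB and ATF dimers, occurred among the members in TUBB2A, against 12% and 1.98% of promoters. TTTGAA occurred in TUBA1C and TUBB4B, against 15.4% of promoters. The motifs were chosen after these sequences had been seen. A match describes letters in this window and is neither a site nor a cause.

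Genes that act on tubulin were taken from lists, also drawn up with earlier results of these data known, and tested with limma across all genes, with adjusted p-values. Many of the genes named were the most changed of their list in these same libraries. Their p-values are therefore descriptive and no independent evidence. Each list is described by its counts and its median beside the all-gene values given above. Of the 14 other tubulins listed, 9 were tested: 1 was higher and 4 lower in Hdepl, with a median of -0.56, and 4 were higher and 4 lower in Wdepl, with a median of 0.42. In Hdepl 2 were lower in DESeq2 and without Hdepl replicate 1, and 2 were higher under quantile normalization and without Hdepl replicate 2, while in Wdepl DESeq2 left 2 lower. TUBA4A, an alpha-tubulin outside the set, rose in both, by 0.36 ± 0.0495 (adjusted p = 4.38e-07) and 0.42 ± 0.0471 (adjusted p = 1.86e-14), from 4309 to 5538 normalized counts on average in the histidine table. TUBE1, which encodes the epsilon-tubulin of centrioles, went from 1199 to 755 in Hdepl (adjusted p = 2.06e-09) and from 1189 to 2169 in Wdepl (adjusted p = 6.14e-31). TUBG1, the main gamma-tubulin, was at -0.05 ± 0.0524 in Hdepl (adjusted p = 0.363) and fell by 0.21 ± 0.0496 in Wdepl (adjusted p = 6.74e-05). TUBG2, the second gamma-tubulin gene, rose from 534 to 853 in Wdepl (0.68 ± 0.0733, adjusted p = 1.98e-15) and was at 0.15 ± 0.0869 in Hdepl (adjusted p = 0.127). TUBD1, which encodes delta-tubulin, fell by 0.56 ± 0.0854 in Hdepl (adjusted p = 2.06e-06) and by 0.27 ± 0.0806 in Wdepl (adjusted p = 0.00185), where its call was lost under quantile normalization (-0.15). TUBB4A, a beta-tubulin of brain, was at about 3 normalized counts and was not tested. Of the 3 other stathmins, only STMN3 had enough reads to be tested, and it fell from 133 to 23.6 normalized counts in Wdepl (log2 -2.45 ± 0.216, adjusted p = 1.26e-20) and from 134 to 102 in Hdepl (-0.39 ± 0.151, adjusted p = 0.0219). Its call in Hdepl was lost in DESeq2, in the fit on all libraries, without untreated replicate 2 (-0.36) and without Hdepl replicate 1 (-0.34).

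The gamma-tubulin ring complex, the template from which microtubules grow, was mostly lower. In Hdepl 8 of its 11 genes fell and 1 rose, with a median of -0.80, and in Wdepl 10 fell and 0 rose, with a median of -0.78. With edgeR, a pseudocount of 8, the replicate number as a block, or without untreated replicate 2, 2 of them rose in Hdepl. TUBGCP5, a shell subunit, went from 1272 to 447 in Hdepl (-1.51 ± 0.0751, adjusted p = 4.01e-15) and from 1261 to 677 in Wdepl (-0.90 ± 0.0657, adjusted p = 1.65e-26). MZT2A, a small adaptor of the complex, fell by 1.48 ± 0.0831 (adjusted p = 3.86e-14) and by 1.08 ± 0.0713 (adjusted p = 5.48e-30). NME7, a kinase bound to the complex, was the exception in Hdepl, where it rose from 611 to 2293 (1.91 ± 0.065, adjusted p = 2.55e-18), and it fell in Wdepl (-0.59 ± 0.083, adjusted p = 2.06e-10). MZT1, another small adaptor, was at 0.11 ± 0.0546 in Hdepl (adjusted p = 0.0592) and fell by 0.96 ± 0.0505 in Wdepl (adjusted p = 2.62e-39).

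Folding of tubulin involves prefoldin, the CCT chaperonin and the cofactors TBCA to TBCE. Of 13 cofactor and prefoldin genes, 8 rose and 2 fell in Hdepl (median 0.51), and 2 rose and 6 fell in Wdepl (median -0.07). PFDN2, a prefoldin subunit, rose from 3220 to 10881 in Hdepl (1.76 ± 0.0542, adjusted p = 3.87e-19) and by 0.43 ± 0.0491 in Wdepl (adjusted p = 4.15e-14). TBCEL, a cofactor-E-like protein that destabilizes tubulin, rose by 1.28 ± 0.067 (adjusted p = 9.93e-15) and 0.80 ± 0.0679 (adjusted p = 1.18e-21). TBCD, which assembles the heterodimer, went from 4376 to 1013 in Hdepl (-2.11 ± 0.0559, adjusted p = 2.43e-20) and from 4339 to 2338 in Wdepl (-0.89 ± 0.0493, adjusted p = 4.74e-37). TBCA, which holds beta-tubulin, fell by 0.25 ± 0.0505 in Hdepl (adjusted p = 0.000117) and 0.29 ± 0.048 in Wdepl (adjusted p = 4.64e-08). Of the 8 CCT subunits, 4 rose and 4 fell in Hdepl (median 0.04), and 0 rose and 5 fell in Wdepl (median -0.28). In limma without trend and without Hdepl replicate 2, 2 subunits fell in Hdepl, and without untreated replicate 2, 1 rose in Wdepl. CCT3 showed opposite directions, from 27192 to 46515 in Hdepl (0.77 ± 0.0551, adjusted p = 3.99e-12) and from 26959 to 13279 in Wdepl (-1.02 ± 0.0487, adjusted p = 2.14e-43), while CCT4 fell in Hdepl (-0.87 ± 0.0544, adjusted p = 3.46e-13). CCT5 rose by 0.47 ± 0.0526 in Hdepl (adjusted p = 1.76e-08) and fell by 0.34 ± 0.049 in Wdepl (adjusted p = 4.68e-10).

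Of the 12 genes of tubulin mRNA autoregulation, 3 rose and 6 fell in Hdepl (median -0.22), and 4 rose and 5 fell in Wdepl (median -0.06). TTC5, the factor that reads the nascent tubulin chain, went from 736 to 371 in Hdepl (-0.98 ± 0.0812, adjusted p = 6.64e-11) and from 730 to 325 in Wdepl (-1.17 ± 0.0827, adjusted p = 1.44e-27). SCAPER, which links it to the deadenylase, fell by 0.88 ± 0.0736 (adjusted p = 8.88e-11) and by 0.25 ± 0.0659 (adjusted p = 0.000515). CNOT11, the deadenylase subunit it contacts, fell by 0.40 ± 0.0503 in Hdepl (adjusted p = 1.3e-07) and rose by 0.31 ± 0.047 in Wdepl (adjusted p = 3.64e-09). CNOT6L, a catalytic subunit, had the same pair of directions, at -0.55 ± 0.0572 (adjusted p = 4.63e-09) and 0.54 ± 0.0497 (adjusted p = 1.61e-19). The design holds no measurement of free tubulin or mRNA decay.

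Enzymes that modify tubulin fell more often than they rose: of those averaging 10 or more normalized counts in both groups, 11 fell and 4 rose of 18 in Hdepl (median -0.26), and 11 fell and 5 rose of 19 in Wdepl (median -0.43). VASH2, a carboxypeptidase that removes the last tyrosine of alpha-tubulin, went from 221 to 21.7 normalized counts in Hdepl (-3.30 ± 0.202, adjusted p = 2.07e-13) and from 219 to 18.5 in Wdepl (-3.50 ± 0.205, adjusted p = 9.53e-35). TTL, the ligase that puts this tyrosine back, fell by 0.66 ± 0.0568 (adjusted p = 1.56e-10) and 0.43 ± 0.0517 (adjusted p = 4.98e-13). AGBL5, a deglutamylase, fell by 1.46 ± 0.0589 in Hdepl (adjusted p = 6.26e-17) and by 0.59 ± 0.0509 in Wdepl (adjusted p = 2.73e-21). TTLL3, a glycylase, rose by 0.43 ± 0.133 (adjusted p = 0.00489) and 1.24 ± 0.0983 (adjusted p = 6.73e-24). Its call in Hdepl was lost with no filter, in limma without trend and without untreated replicate 2 (0.18).

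Among microtubule-binding and plus-end proteins, 14 rose and 11 fell of the 26 that averaged 10 or more in both groups in Hdepl (median 0.15), and 12 rose and 9 fell of 26 in Wdepl. Without Hdepl replicate 1 or 2, 7 and 6 fell in Hdepl. MAPRE3, an end-binding protein of growing plus ends, rose in both, from 363 to 886 (1.28 ± 0.0824, adjusted p = 5.51e-13) and from 360 to 1620 (2.17 ± 0.0697, adjusted p = 2.55e-62). DCTN1, the large dynactin subunit, fell in both, by 1.78 ± 0.0583 (adjusted p = 1.27e-18) and 0.54 ± 0.0474 (adjusted p = 5.31e-21). MAP7D2, a kinesin-recruiting protein, rose from 28.5 to 208 in Hdepl (2.83 ± 0.185, adjusted p = 7.55e-13) and went from 28.3 to 14.3 in Wdepl (-0.96 ± 0.346, adjusted p = 0.01), a call that was lost in DESeq2, without untreated replicate 1 (-0.82) and without Wdepl replicate 1 (-0.69). MAP2, best known from dendrites, rose from 94.7 to 385 in Wdepl (2.02 ± 0.127, adjusted p = 6.67e-32) and was at -0.35 ± 0.184 in Hdepl (adjusted p = 0.0878).

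Severing enzymes and depolymerases, which take microtubules apart, differed between the depletions in their medians: of the 12 that averaged 10 or more normalized counts in both groups, 5 rose and 5 fell in Hdepl (median 0.15), and of 12 in Wdepl 3 rose and 8 fell (median -1.20). Directly compared, 9 of 12 were higher in Hdepl than in Wdepl and 2 were lower, with a median of 1.27. FIGN and KIF19, which reached that mean in 1 group only, are left out of these counts. KIF18B, a kinesin of the mitotic spindle, went from 3598 to 1888 in Hdepl (-0.93 ± 0.0536, adjusted p = 6.64e-14) and from 3568 to 344 in Wdepl (-3.37 ± 0.0616, adjusted p = 1.39e-92). KATNAL1, a katanin-like severing enzyme, rose from 144 to 300 in Hdepl (1.05 ± 0.118, adjusted p = 1.67e-08) and fell from 143 to 11.1 in Wdepl (-3.57 ± 0.251, adjusted p = 5.65e-28). FIGN, the severing enzyme fidgetin, was at 1.04 normalized counts in untreated cells and at 141 in Hdepl, the group through which it passed the filter on low counts, so no p-value is given for it. It was too low to be tested in Wdepl.

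**Figure D4:**
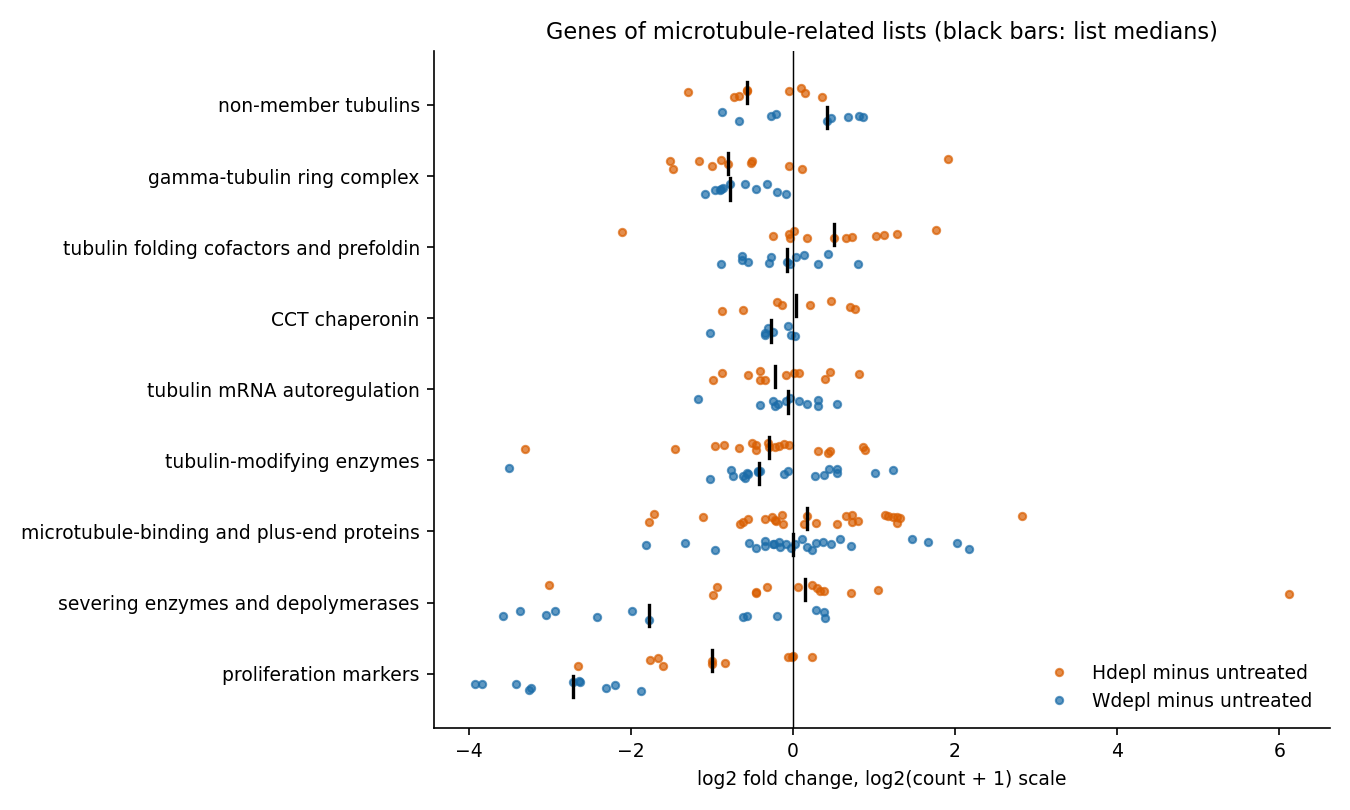
log2 fold change of each tested gene of 9 lists in Hdepl and Wdepl against untreated cells, on the log2(normalized count + 1) scale; points are genes and black bars list medians. The proliferation markers and the severing enzymes and depolymerases lie furthest left in Wdepl, with medians of -2.71 and -1.78 over all genes plotted, and -1.20 for the latter without KIF19.

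Proliferation markers were also measured beside these genes. Of 11 markers, 7 fell and 1 rose in Hdepl (median -1.0) and 11 fell in Wdepl (median -2.71), and all 11 were higher in Hdepl than in Wdepl (median 2.09). Their summed normalized counts lay between 104346 and 108500 in untreated cells, 60313 and 61003 in Hdepl, and 16009 and 16868 in Wdepl, and none was at 0. TOP2A, the topoisomerase of dividing cells, fell by 1.66 ± 0.0511 in Hdepl (adjusted p = 3.74e-19) and by 3.25 ± 0.0468 in Wdepl (adjusted p = 1.05e-105). MKI67, which encodes the Ki-67 antigen, fell by 0.84 ± 0.0523 (adjusted p = 3.18e-13) and 2.31 ± 0.0473 (adjusted p = 2.92e-86). In Hdepl the mitotic genes CDK1, CCNA2 and BIRC5, at -0.01, -0.00 and -0.06, did not pass the threshold, and CCNB1, the mitotic cyclin B1, was the marker that rose, by 0.23 ± 0.0512 (adjusted p = 0.000277). Under quantile normalization 10 markers fell and 0 rose in Hdepl, with CCNB1 at -0.023. The part of cell proliferation in the tubulin and stathmin values was not tested.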

How the data were processed

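RNA of HT29 cells (2 libraries per condition) was sequenced from stranded mRNA libraries. The authors used STAR 2.7.10a (GRCh38), HTSeq 2.0.5 on exons of an earlier GENCODE release, and DESeq2 for scaling. They deposited 1 table per depletion, each with the same untreated libraries, whose signal is the count after division by a size factor. Use of strand, molecular identifiers and reads with several alignments was not given in the sources used here.

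Dividing each value by its library's step gave whole reads for 100% of values (tolerance 0.01), and both tables gave identical untreated reads. Of 60676 identifiers, 60357 were named by GENCODE 44. limma 3.58.1 in R 4.3.3 (trend on, two-sided) was run on log2 values (pseudocount 1) of genes averaging 10 or more normalized counts over the libraries compared, and Benjamini-Hochberg adjusted p-values under 0.05 passed. Fold changes on this scale understate the change of low genes. Hdepl and Wdepl were compared on recovered reads of 6 libraries scaled together by median-of-ratios. RPKM used the union of exons. Promoters came from RefSeq (10 of 10 members matched). On simulated counts of 18138 genes limma recovered 90.5% of changed genes with 4.23% false calls. Only a small share of the genes was changed in that simulation, and 1 noise level was used for all. Far more genes passed in the data, so these rates are not error rates of the contrasts here.

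The members and lists were chosen with earlier results of these data known. Named were the members, per list other than the marker and proliferation lists the 2 most changed genes that passed in each depletion and averaged 100 or more in the higher group, 11 genes fixed by name, and the 3 genes nearest to STMN1. CDK1, CCNA2, BIRC5, CCNB1 and single cell type markers were named after their values were seen. Alternatives were pseudocounts of 0.5 and 8, other filters, limma without trend, quantile normalization, edgeR 4.0.16 and DESeq2 1.42.0 on recovered reads, a fit on all libraries, a replicate block, other lengths, sums over all listed tubulins, size factors for the sums and list counts over genes reaching the filter in both groups (these added after the data were seen) and each library left out. Python 3.11.15, pandas 2.3.3, Biopython 1.88 and matplotlib 3.10.9 were used.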

Additional observations from a re-analysis of the deposited data

How the results depend on the processing

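The log2 fold changes of the members were recomputed under every alternative: 401 values kept their direction and side of the threshold, 11 no longer passed, 1 newly passed and 3 turned. The values that turned were TUBA1C in Hdepl under quantile normalization (-0.24) and TUBB6 in Hdepl without Hdepl replicate 2 (-0.029) or untreated replicate 1 (-0.0036), within a range of -0.029 to 0.22 over the libraries left out. Among the named genes of the related lists, MZT1 in Hdepl (-0.024), CCT4 in Wdepl (-0.068) and TBCA between the depletions (-0.048) turned under quantile normalization, CCT4 in Wdepl without untreated replicate 1 (-0.053, range to 0.10), and VASH2 between the depletions without Hdepl replicate 2 (-0.052, range to 0.42), none of which passed the threshold in the values reported. Of the proliferation markers in Hdepl, CCNB1 turned under quantile normalization (-0.023) and lost its call, while BIRC5 (-0.22), CCNA2 (-0.15) and CDK1 (-0.21) then passed. CCNA2 and CDK1, near 0, turned without untreated replicate 2 (0.062 and 0.024) and CDK1 without Hdepl replicate 2 (0.00065), with ranges from -0.066 and -0.053. Of the values of these named list genes, 1535 kept direction and side of the threshold, 15 newly passed and 21 lost the call, the latter in 6 genes that kept their direction: TTLL3 and STMN3 in Hdepl, TUBD1 and MAP7D2 in Wdepl, and TUBA4A and TUBG1 between the depletions. The causes were not tested. With DESeq2, 1 member was higher in Wdepl and 0 lower in Hdepl than in Wdepl, where TUBB6 gave -0.61. With single libraries left out, the members higher numbered 2 to 3 in Hdepl, 2 to 3 in Wdepl and 7 between the depletions, and the members lower 4 to 5, 6, and 0 to 1. The 0 came without Hdepl replicate 1 or Wdepl replicate 2. Over all genes, 12957 to 13851, 11005 to 12585 and 13405 to 13807 were then called. A lone library left in a group is assumed to vary like the others. Of the counts of higher and lower genes in the related lists, 816 stayed within 1.5 times the reported count and 24 did not (in Hdepl the ring complex, CCT chaperonin, other tubulins, other stathmins, microtubule-binding proteins and proliferation markers, in Wdepl and between the depletions the other tubulins and CCT chaperonin, and between them also the folding cofactors). A filter on a mean of at least 50 removed TUBB3 from every comparison and TUBB6 from that of Hdepl.

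The TUBA1B share of the alpha members was 59.9% in untreated cells, 37% in Hdepl and 31.2% in Wdepl with the longest protein-coding transcript as length, and 46.8%, 25.7% and 21% with no length. Over all listed alpha-tubulins, added after the data were seen, it was 44%, 22.3% and 14.5%. The TUBB share of the beta members was 42.9%, 22.3% and 22.2% with that transcript, and 58.2%, 34.7% and 34.6% with no length. Single libraries gave 51.4% to 52.8%, 29.1% to 30.7% and 24.5% to 25% for TUBA1B and 41.1% to 41.2%, 21.2% to 21.4% and 21.2% to 21.3% for TUBB.

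Libraries with the same replicate number did not deviate together (correlations of 0.042, 0.002 and -0.041 across genes). Whether they were cultured or prepared together is not stated by the labels, and these correlations cannot tell. With the replicate number as a block, 14432, 12766 and 14335 genes were called against 14130, 12721 and 14306 without, and the counts of members higher and lower did not change, while 2 ring complex genes rose in Hdepl against 1 without. With 2 libraries per group an exact permutation test cannot go below 0.333. TUBB2B, TUBB3 and TUBB6 had under 100 normalized counts, and the part of depth in the uncertainty of their values was not tested.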
